A study of Mus musculus with 8 samples.

Results

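Acid-base transport genes were followed in mouse kidney fragments sorted as distal convoluted tubule, where NaCl is taken back through the thiazide-sensitive cotransporter. The genes were all protein-coding mouse symbols of the vacuolar proton pump (Atp6v0 and Atp6v1), the carbonic anhydrases (Car followed by a number), the bicarbonate and anion transporter families Slc4 and Slc26 and the sodium-proton exchanger family Slc9, together with Foxi1, Rhag, Rhbg, Rhcg and Oxgr1. This rule used names and no measured value, and it took 75 of the 42416 gene identifiers in the count table: 9 genes of the pump's membrane part V0, 14 of its cytosolic part V1, 14 carbonic anhydrases, 11 each of Slc4, Slc9 and Slc26, and the 5 genes given by name. The pattern also takes in the adaptor genes Slc9a3r1, Slc9a3r2 and Slc4a1ap, which encode no transporter. Of the 75, 64 had at least 10 counts in at least 4 libraries and were tested, among 14444 genes tested in all.

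The study compared 4 Control libraries with 4 libraries labelled KO, each from 1000 tubule fragments and each labelled with another animal number. Both groups carried 1 copy of a Cre transgene named NCCcre and of a TOMATO reporter, NCC being the usual short name of the thiazide-sensitive cotransporter Slc12a3. Both were induced with oral tamoxifen (2 mg daily for each animal, over 5 days) 3 weeks ahead of collection. KO animals were homozygous for the floxed Cnb1 allele, and Control animals carried the wild-type form. Cnb1 is Ppp3r1, the regulatory subunit of the phosphatase calcineurin, and the series concerns the kidney side effects of calcineurin inhibitors. The labels give neither age nor sex, and they do not say which exons are floxed. Ppp3r1 stood at 97.3 CPM (counts scaled to a common library size) on average in Control and 86.2 CPM for KO, with ranges of 84.2 to 108 and 74.0 to 97.6 CPM, so that its gene-level count does not check the genotype.

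Cells move acid and base with a small set of machines. The vacuolar proton pump uses ATP to push protons across a membrane. Carbonic anhydrases supply it with protons and bicarbonate by hydrating carbon dioxide, and exchangers and cotransporters of the Slc4, Slc9 and Slc26 families carry bicarbonate, chloride, sodium and protons over the apical and basolateral membranes. In the distal nephron this equipment is best known from intercalated cells, which are set up by the transcription factor Foxi1: type A cells secrete acid, with the anion exchanger Slc4a1 on the blood side, and type B cells secrete bicarbonate through pendrin, Slc26a4.

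Total counts ranged from 18161442 to 45150953 per library. Among the 9 marker genes of the distal convoluted tubule, 5 were lower in KO past the threshold and 0 higher, and their summed level was 17640 to 20567 CPM for Control and 6558 to 12127 CPM for KO. All 9 had enough counts to be tested, and they did not move alike. Their log2 fold changes included -8.05 for Pvalb and -2.68 for Calb1, which passed. Slc12a3 at -0.41, Emx1 at -0.11 and Sall3 at 0.17 did not. Slc12a3 was at 8074 CPM in KO replicate 1, above the Control range of 5648 to 8035 CPM. In the other KO libraries it was at 3907 to 4518 CPM, below that range. Markers of neighbouring cell types were present as well. The 5 type A markers, of which Slc4a1 is itself a member, summed to 130 to 186 CPM for Control and 85.4 to 183 CPM for KO, and the 4 type B markers, which include the members Slc26a4 and Slc4a9, to 243 to 363 and 237 to 381 CPM. The 6 markers of both intercalated types were all members: Foxi1, Atp6v1g3, Atp6v0d2, Atp6v1b1, Atp6v0a4 and Rhcg. They summed to 1497 to 1630 CPM for Control and 1587 to 1912 CPM for KO, and 0 of the 6 passed. The 7 proximal tubule markers summed to 1058 to 3928 CPM for Control and 1073 to 2402 CPM for KO. The 7 principal cell markers summed to 353 to 605 CPM and 157 to 375 CPM, and the 5 of the thick ascending limb to 7431 to 12188 CPM and 2776 to 5454 CPM. Most of the latter sum was Umod, at 8804 CPM on average for Control and 3857 CPM for KO. It alone of the 5 passed the threshold, and the other 4, with Ppp1r1b at log2 0.18, did not. The 6 leukocyte markers summed to 17.4 to 24.5 CPM for Control and 26.6 to 78.5 CPM for KO, with 0 of the 5 tested past the threshold and Adgre1 at 0.194 and 0.266 CPM on average. In such bulk samples, these sums cannot tell apart fewer cells of a type, less RNA per cell and changes of single genes.

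Control replicate 1 stood apart most by transcript length. In Control replicate 1, genes with the shortest exons in all (up to 2852 bases, as 1 of 4 equal classes of 10677 genes) lay 0.41 higher on the log2 scale, at the median, than in the other Control libraries, and those with the longest (over 6968 bases) 0.27 lower (median -0.27). In the other 3 Control libraries the same medians were between -0.15 and -0.12 for the shortest class and between 0.07 and 0.11 for the longest. KO replicate 2 leaned the same way by less, at 0.13 for the shortest class and -0.12 for the longest. In the other KO libraries these medians were between -0.045 and -0.0034 and between 0.019 and 0.061. For some results that rest on Control replicate 1, values without it are therefore given as well.

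None of the 64 tested acid-base genes passed the threshold between KO and Control. In simulated data the same test recovered 13.4% of 1.5-fold changes. No gene with low counts was among those changed there. A gene that did not pass can thus still differ. By edgeR's quasi-likelihood test, with Benjamini-Hochberg adjustment over all genes tested and a threshold of 0.05, 0 were higher and 0 lower, where 1.23% of all genes tested were called higher and 0.838% lower (2.06% in either direction). Before adjustment, 5 members had a p under 0.05 with KO higher and 5 with KO lower, beside 7.80% and 6.13% of all genes, so the share of members was near the background. Other tests called a few: DESeq2 called Atp6v1b1 and Oxgr1 higher and Atp6v1g1 lower, limma-voom with library quality weights called Atp6v1b1 higher and Slc26a1 lower, and edgeR with library totals in place of scaling factors called Atp6v1b1 higher. Over all genes DESeq2 called 2.95% higher and 2.26% lower, limma-voom 2.18% and 1.74%, and edgeR with library totals 1.67% and 0.616%, so these few members were near the background of each test. The log2 fold changes of KO over Control had a median of -0.05 over the 64 members and -0.02 over all genes, and they ran from -0.89 to 0.95. In 2 members every KO library lay above every Control library, Atp6v1b1 and Oxgr1, and in 2 every KO library lay below, Atp6v0d1 and Atp6v1g1. Among all genes such separation held for 5.60% with KO higher and 3.80% with KO lower.

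**Figure D1:**
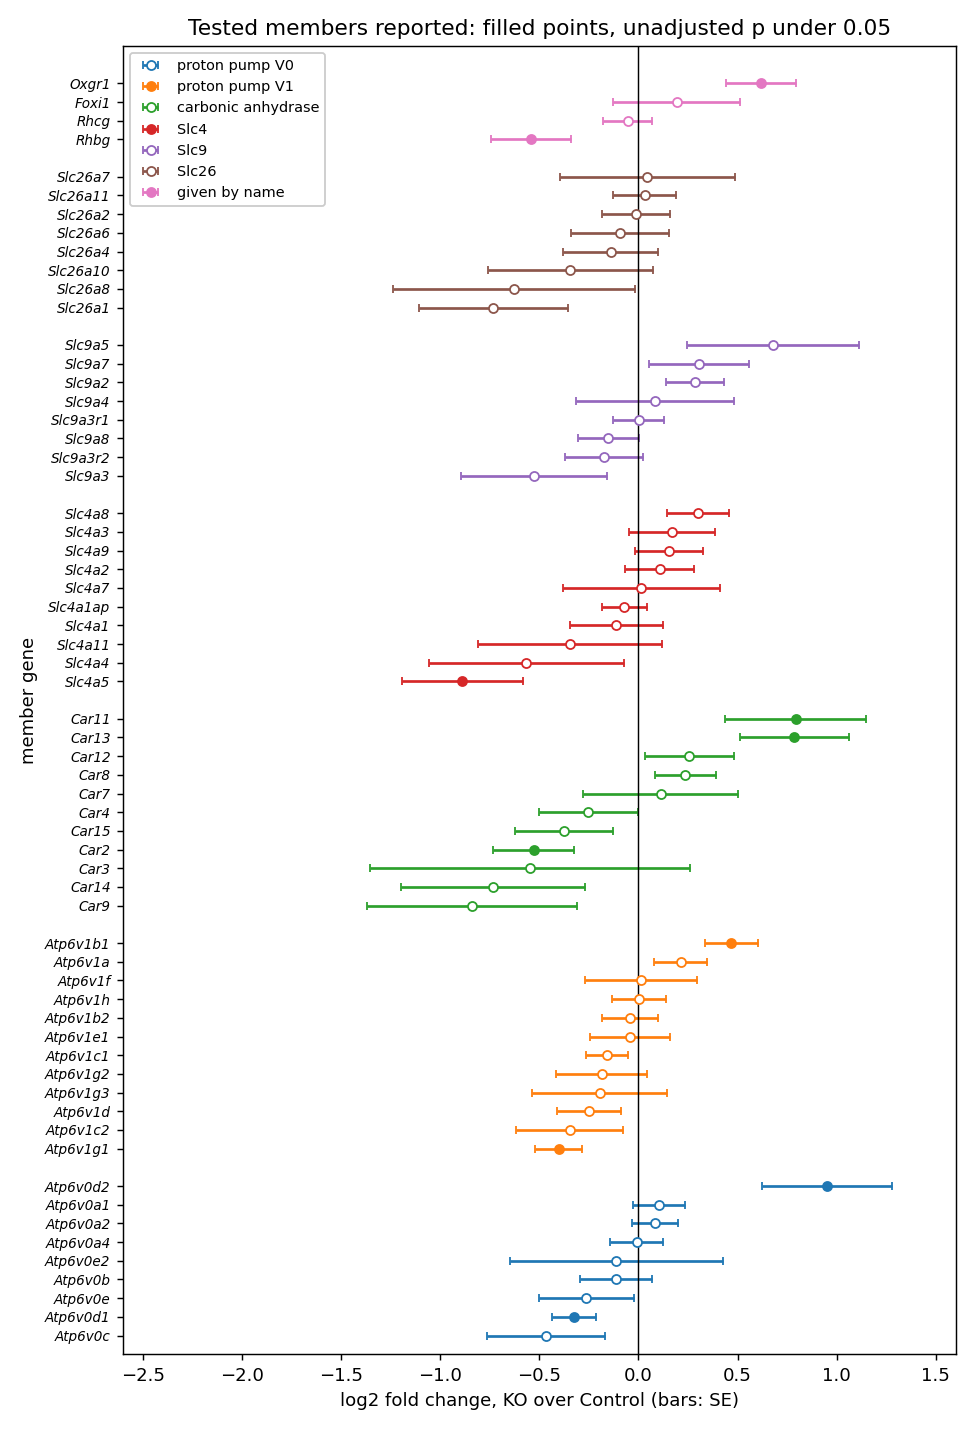
Log2 fold change of KO over Control (x axis) for the tested members reported here (y axis), grouped by family and ordered within it, with bars of 1 SE. Filled points have an unadjusted p under 0.05; there are 5 to the right of 0 and 5 to the left, and no member passed after adjustment over all genes.

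The proton pump was strongly expressed in Control tubules. Counted per kilobase of exon, which allows genes to be compared, its most abundant subunit was Atp6v1f, a small subunit of the central stalk, at 287 ± 124 CPM per kb (SD, n = 4). Next came Atp6v1a, the catalytic A subunit, at 139 ± 10.6 CPM per kb, and Atp6v0b, a proteolipid of the rotating membrane ring, at 118 ± 28.4 CPM per kb (SD, n = 4 each). Atp6v1a stood above 97.7% of tested genes on this scale. The least expressed tested subunit gene, Atp6v1g2, a form known from neurons, stood at 1.90 ± 0.348 CPM per kb (SD, n = 4). Atp6v1e2, the testis form of the E subunit, had 0 counts in all 8 libraries, which allows up to 0.0137 CPM over all of them (3 counts, counting error only).

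**Figure D2:**
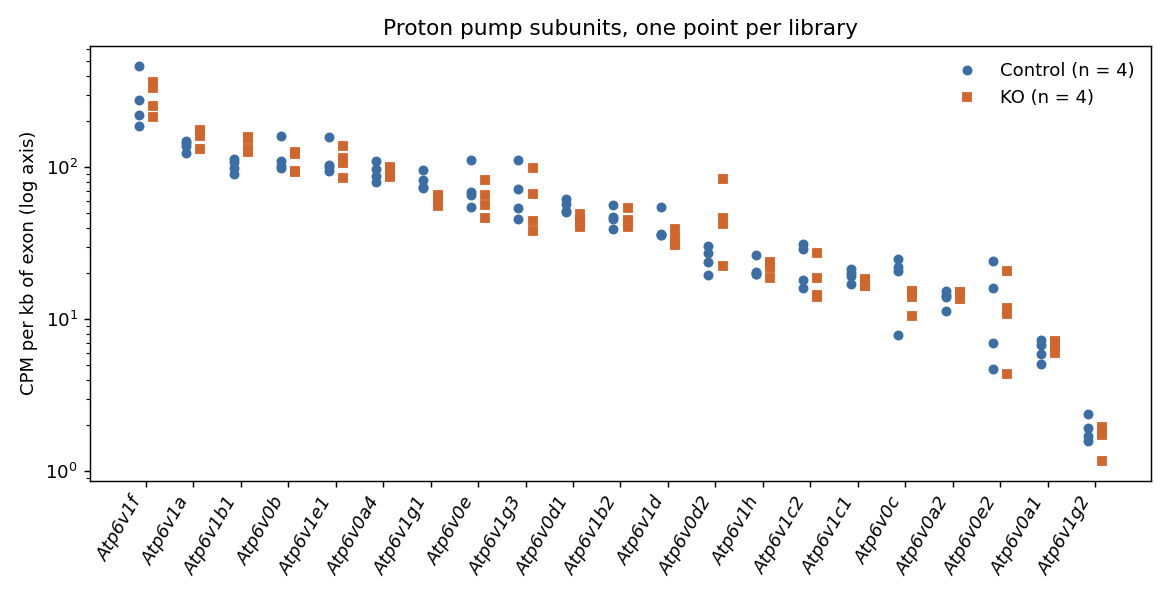
Level of the 21 tested proton pump subunit genes in CPM per kb of exon (y axis, log scale), one point per library, Control as circles and KO as squares, ordered from left to right by their mean. Atp6v1f is the highest and Atp6v1g2 the lowest, and Control and KO points lie over each other for most genes.

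Several pump subunits exist as a broadly expressed form and a form enriched in acid-secreting cells, and the enriched forms made up a large part of the pump transcripts. Of the per-kilobase level of the 4 genes for the a subunit, which forms the proton path, Atp6v0a4 held 80.5% ± 1.11 for Control and 78.3% ± 2.295 for KO (SD, n = 4 each). Atp6v0a2 and Atp6v0a1 held 11.9% and 5.40% in Control, and Tcirg1, the form of osteoclasts and macrophages, 2.17%. Of the B subunit, which lines the ATP-binding sites, Atp6v1b1 held 68.5% ± 4.61 for Control and 75.6% ± 1.89 for KO. The share was 63.6% to 74.3% in Control and 74.0% to 77.9% in KO, so that the groups met only at Control replicate 1, whose share of 74.3% was the highest of its group. Of the d subunit, which joins the membrane ring to the stalk, Atp6v0d2 held 31.1% ± 4.398 for Control and 49.8% ± 12.5 for KO. Here KO replicate 1, at 35.7%, lay within the Control range of 27.6% to 36.9%, and KO replicate 4, at 66.1%, lay farthest above it. Of the C subunit, a clamp between stalk and motor, Atp6v1c2 held 53.8% ± 9.61 for Control and 50.6% ± 8.15 for KO. Of the G subunit, part of the outer stalks, Atp6v1g3 held 44.7% ± 8.03 and 47.8% ± 12.2. These shares are a description and were not tested. Exons of Atp6v0a4 overlap those of Tmem213 on the other strand, which held 77.4% as many counts, and those of Atp6v1c2 overlap Pdia6, which held 514%. Without a known strand setting, reads of the overlaps cannot be told apart.

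**Figure D3:**
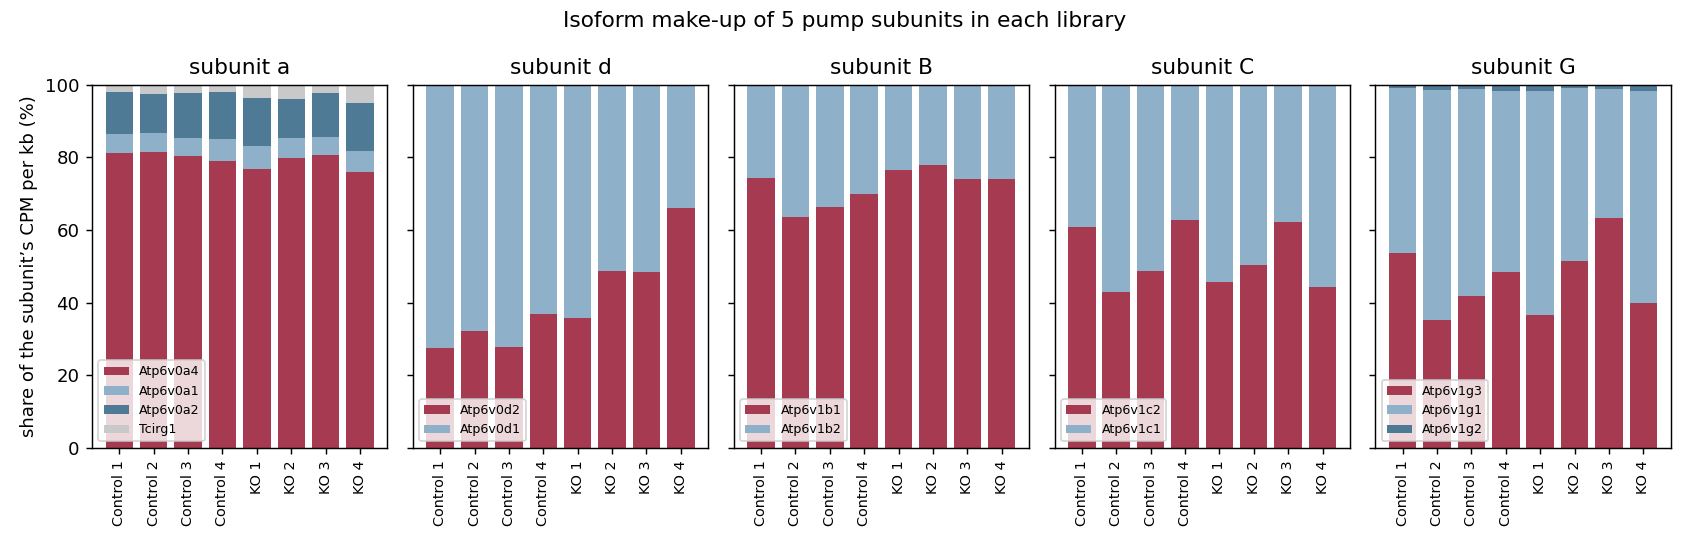
Share of each isoform gene in the summed CPM per kb of its subunit (y axis, percent) in each of the 8 libraries (x axis), for the subunits a, d, B, C and G of the proton pump. The lowest block of each bar is the form enriched in acid-secreting cells; it holds 76.0% to 81.4% of subunit a throughout, and of subunit d 27.6% to 36.9% in Control and 35.7% to 66.1% in KO.

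Atp6v1b1 (ENSMUSG00000006269, chromosome 6, 83742990 to 83758855, plus strand, GRCm38) had the smallest adjusted p of all members. It encodes the B1 subunit, loss of which causes distal renal tubular acidosis with deafness in people. Its level was 499, 435, 393 and 477 CPM over Control replicates 1 to 4 and 580.1, 696, 550 and 671 CPM over KO replicates 1 to 4. All 4 KO libraries lay above all 4 Control libraries. The log2 fold change was 0.47 ± 0.13 (SE, edgeR QL adjusted p = 0.128), and it lay between 0.41 and 0.62 over the other settings. The adjusted p was 0.0128 by DESeq2, 0.0204 by limma-voom and 0.0404 with library totals, and between 0.0875 and 0.327 in all other settings. Its partner Atp6v1b2 stood at 250 ± 38.0 CPM for Control and 243 ± 29.8 CPM for KO (SD, n = 4 each; log2 -0.04 ± 0.14, SE). That sign turned with library totals as the scaling, where Atp6v1b2 was at 0.10.

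The 250 bases before the start of Atp6v1b1 are shown because this is the pump gene whose groups separated upward, and because Foxi1, a forkhead factor, is known to act on this gene. The sequence is from RefSeq on GRCm38.p6, chr6:83742767-83743016, plus strand, 5′ to 3′, and the capitals mark the only match to the forkhead core TGTTTAC, searched on both strands.
Atp6v1b1: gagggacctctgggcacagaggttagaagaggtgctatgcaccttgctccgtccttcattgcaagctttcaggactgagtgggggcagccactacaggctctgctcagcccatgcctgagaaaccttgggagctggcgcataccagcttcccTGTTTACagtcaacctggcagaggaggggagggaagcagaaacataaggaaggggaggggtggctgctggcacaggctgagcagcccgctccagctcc
The match begins 98 bases before the gene start in RefSeq. Promoters were given for 53 of the 75 members, with 65 promoters of 300 bases between them. The forkhead core was found in 2 of these (3.08%), those of Atp6v1b1 and Slc26a1, and in 3.65% of all 32851 promoters in the table. A match is a string of letters and was not tested as a binding site.

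A second motif, CACGTG, is the core of the element through which the factor TFEB drives lysosome and proton pump genes. It reads the same on both strands. It was found in 7 of the 65 promoters given for members (10.8%) and in 7.15% of all promoters of the same length. Of the 20 promoters given for pump subunits, 4 held it (20%). Slc26, Slc9 and the carbonic anhydrases had 1 promoter each with it. The pump genes were Atp6v0b, Atp6v0d1, Atp6v0e and Atp6v1a. Windows around the match are shown for the pair of pump genes in which it lies before the start with its flanks. Matches are in capitals, and both windows are from RefSeq on GRCm38.p6, minus strand.
Atp6v0b (chr4:117887340-117887385): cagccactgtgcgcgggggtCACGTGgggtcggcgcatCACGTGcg
Atp6v1a (chr16:44139365-44139410): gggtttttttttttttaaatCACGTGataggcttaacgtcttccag
The log2 fold changes of these 4 genes were -0.11 for Atp6v0b, -0.33 for Atp6v0d1, -0.26 for Atp6v0e and 0.21 for Atp6v1a, and none passed the threshold. That of Atp6v0b was 0.05 with library totals as the scaling and 0.06 without Control replicate 1, and that of Atp6v0e was -0.10 and -0.014 in the same settings.

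The d subunit had its forms at opposite signs. Atp6v0d2 (chromosome 4, 19876841 to 19922605, minus strand), the form of intercalated cells, osteoclasts and macrophages, was at 64.2, 74.5, 52.9 and 81.7 CPM over Control replicates 1 to 4 and at 61.0, 126, 115 and 227 CPM over KO replicates 1 to 4. The KO libraries spread over a far wider range than the Control libraries, and KO replicate 1 lay among the latter. The log2 fold change was 0.95 ± 0.33 (SE, edgeR QL adjusted p = 0.223), the largest of any member, and without KO replicate 4 it was 0.55. Since macrophages also use this gene, leukocyte markers are given beside it. The 6 markers summed to 78.5, 35.9, 26.6 and 49.8 CPM over KO replicates 1 to 4, of which Csf1r held 72.2, 12.4, 13.2 and 32.8 CPM. Ptprc was at 2.51, 6.55, 3.46 and 10.9 CPM in the same KO libraries, the same order as Atp6v0d2, and averaged 1.96 CPM for Control. Cd68 was at 0.905, 2.62, 0.786 and 3.81 CPM, also highest in KO replicate 4, and averaged 0.508 CPM for Control. Lyz2 averaged 0.907 CPM for KO and 1.03 CPM for Control, and Cd74 5.998 and 9.93 CPM. Their part in the level of Atp6v0d2 was not tested. Atp6v0d1 (chromosome 8, 105524465 to 105566047, minus strand), the broadly expressed form, was at 111, 103, 90.9 and 92.4 CPM for Control and 72.6, 87.7, 80.4 and 77.0 CPM for KO. No KO library reached the lowest Control library, and the log2 fold change was -0.33 ± 0.11 (SE, edgeR QL adjusted p = 0.22), or -0.18 with library totals as the scaling.

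The G subunit showed the same layout for its broadly expressed form. Atp6v1g1 (chromosome 4, 63544772 to 63550750, plus strand) was at 108, 93.8, 83.1 and 84.6 CPM for Control and 72.6, 69.3, 63.2 and 74.3 CPM for KO. The groups did not overlap, and the log2 fold change was -0.40 ± 0.12 (SE, edgeR QL adjusted p = 0.139; 0.0306 by DESeq2). It was -0.33 without Control replicate 1 and -0.25 with library totals as the scaling. Atp6v1g3, the form of intercalated cells, was at 212, 86.3, 101 and 136 CPM for Control and 71.3, 125, 187 and 84.0 CPM for KO, with groups that overlapped fully. Its log2 fold change of -0.20 ± 0.34 (SE) turned to 0.11 without Control replicate 1, the library with the strongest length trend, where it was highest. Of the a subunit genes, Atp6v0a4 had -0.01 ± 0.13, Atp6v0a2 0.08 ± 0.12 and Atp6v0a1 0.10 ± 0.13 (SE), and the first turned to 0.13 with library totals. The fourth, Tcirg1, was at 8.72, 15.1, 12.6 and 10.4 CPM over Control replicates 1 to 4 and at 18.7, 21.9, 11.8 and 26.8 CPM over KO replicates 1 to 4. Its groups overlapped at KO replicate 3, and its log2 fold change was 0.75 ± 0.25 (SE, edgeR QL adjusted p = 0.213). Atp6v0a4 was at 464 ± 64.1 CPM for Control and 462 ± 38.3 CPM for KO (SD, n = 4 each).

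Over the whole pump, 21 of 23 subunit genes were tested, and 0 were called in either direction. Their median log2 fold change was -0.11, with 7 positive and 14 negative, beside 6800 positive and 7644 negative over all genes tested. Control replicate 1 held the highest Control value in 11 of the 21, and KO replicate 1 the lowest KO value in 13. Over all 64 tested members these counts were 16 and 29. In Control replicate 1 Atp6v1f stood at 495 CPM, where the remaining Control libraries had 199 to 292 CPM. Atp6v0e, the e subunit, stood there at 412 against 203 to 254 CPM. The exons of Atp6v1f cover 1063 bases, so it belongs to the shortest class of genes, while those of Atp6v0e cover 3712 bases and fall in the next class, whose median in that library was 0.12. Without Control replicate 1 the median over all 64 members was -0.07, where it was -0.05 with all libraries. Over all genes the same medians were 0.01 and -0.02. The median of the pump genes alone was not computed without it. Atp6v0c, the main proteolipid of the ring, was lowest in Control replicate 3, at 26.6 CPM, where the remaining Control libraries had 70.5 to 84.2 CPM. Its log2 fold change was -0.47 ± 0.30 (SE) and, without that library, -0.72 (edgeR QL adjusted p = 0.0782); by limma-voom with quality weights it was 0.03.

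Oxgr1 (ENSMUSG00000044819, chromosome 14, 120019585 to 120042435, minus strand) encodes the receptor for 2-oxoglutarate, a urinary metabolite that in the collecting system is known to signal to type B intercalated cells in alkalosis. It was at 108, 141, 137 and 130 CPM over Control replicates 1 to 4 and 165, 191, 272 and 166 CPM over KO replicates 1 to 4. Every KO library was above every Control library, and KO replicate 3 was the highest. The log2 fold change was 0.62 ± 0.18 (SE, edgeR QL adjusted p = 0.131; 0.0355 by DESeq2), and it was 0.42 without KO replicate 3. The 4 type B markers summed to 237, 258, 381 and 257 CPM over KO replicates 1 to 4 and were thus also highest in KO replicate 3, and 0 of the 4 passed the test. Their Control sums were 243 to 363 CPM. The part of type B cell RNA in the level of Oxgr1 was not tested.
Its upstream bases are shown beside those of Atp6v1b1 as those of the other member that separated upward, from RefSeq on GRCm38.p6, chr14:120042436-120042685, minus strand. They hold neither TGTTTAC nor CACGTG on either strand, and no capitals are marked.
Oxgr1: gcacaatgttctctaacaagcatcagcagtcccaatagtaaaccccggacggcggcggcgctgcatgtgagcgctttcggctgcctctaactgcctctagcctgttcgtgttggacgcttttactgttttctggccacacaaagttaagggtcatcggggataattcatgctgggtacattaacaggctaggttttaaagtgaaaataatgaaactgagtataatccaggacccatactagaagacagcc

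The ammonia channels of the Rh family split by level. Rhcg, the channel through which ammonia enters the urine, was the second most abundant member per length after Atp6v1f, at 188 ± 11.1 CPM per kb for Control and 181 ± 21.8 for KO (SD, n = 4 each), above 98.4% of tested genes. It was also the member with the least spread among Control libraries, with a coefficient of variation of 5.91%. Its log2 fold change was -0.06 ± 0.12 (SE) and turned positive with library totals (0.09). Rhbg, its basolateral relative, was at 93.0, 69.5, 70.4 and 120 CPM for Control and 52.1, 75.1, 64.8 and 50.5 CPM for KO. KO replicate 2 lay among the Control values, and the log2 fold change was -0.54 ± 0.20 (SE, edgeR QL adjusted p = 0.262), or -0.36 without Control replicate 4. Rhbg shares exons with the predicted gene Gm38392 on the same strand, which held 84.2% as many counts. Rhag, the erythroid member, had 0 counts in every library, and the 5 red blood cell markers summed to at most 4.79 CPM in any library.

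Foxi1 differed between KO libraries more than between groups. It was at 49.96, 42.4, 45.4 and 48.3 CPM for Control and 42.1, 44.9, 98.3 and 27.1 CPM for KO. The Control libraries were tight, with a coefficient of variation of 7.16%, and the KO libraries ranged 3.63-fold. The log2 fold change of 0.19 ± 0.32 (SE) turned to -0.30 without KO replicate 3. Foxi1, Slc26a4 and Slc4a1 each had their lowest KO values in replicates 1 and 4. Pendrin (Slc26a4) was at 74.8, 97.3, 154 and 78.0 CPM over KO replicates 1 to 4, against 92.1 to 145 CPM for Control. Slc4a1, the type A anion exchanger and red cell band 3, was at 34.7, 70.0, 57.2 and 34.9 CPM, against 42.7 to 63.6 CPM for Control. Their log2 fold changes were -0.14 ± 0.24 for Slc26a4, which turned to 0.01 without Control replicate 4, and -0.11 ± 0.23 for Slc4a1, which was 0.02 without KO replicate 1, without KO replicate 4 and with library totals as the scaling. Slc4a9, the basolateral partner of pendrin, was at 115 ± 23.1 CPM for Control and 128 ± 23.7 CPM for KO (SD, n = 4 each; log2 0.16 ± 0.17, SE).

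**Figure D4:**
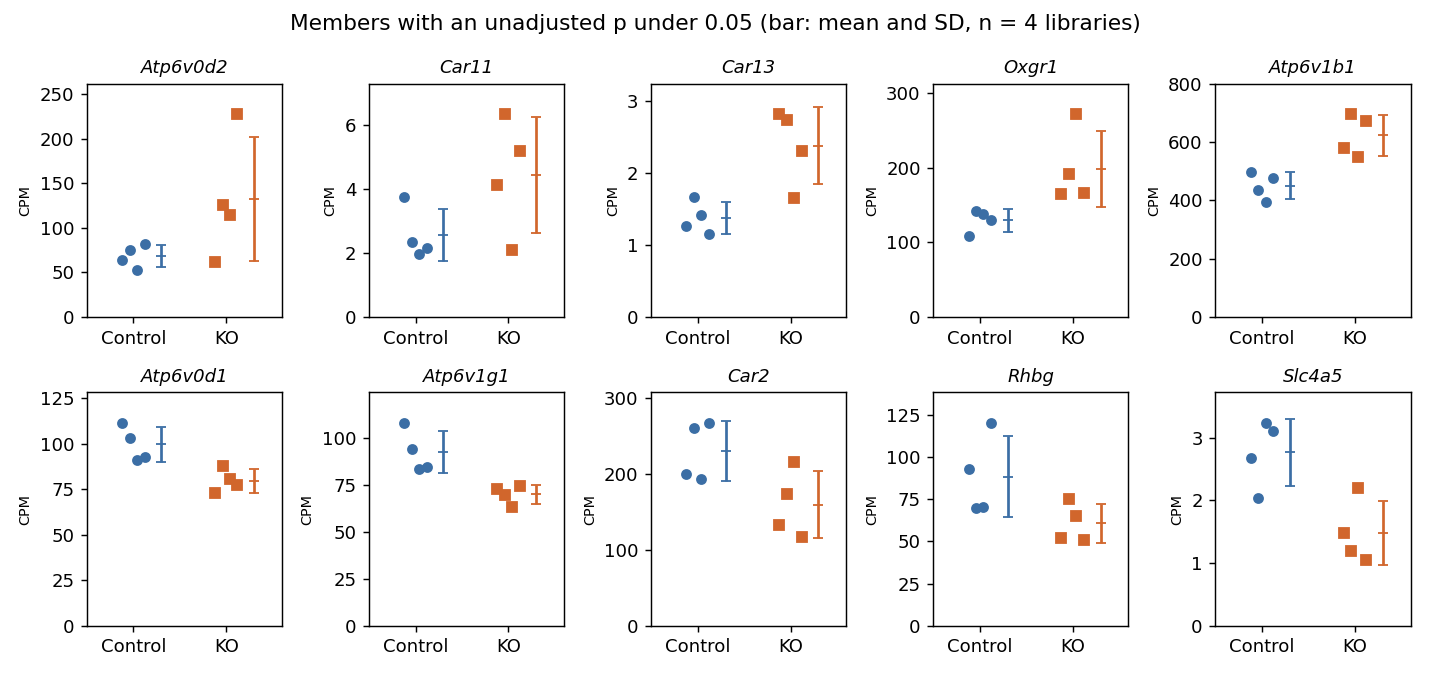
CPM (y axis, from 0) in each Control and KO library for the 10 members with an unadjusted p under 0.05, with mean and SD at the right of each group (n = 4). Groups are separate for Oxgr1, Atp6v1b1, Atp6v0d1 and Atp6v1g1 and overlap for the other 6; none of the 10 passed after adjustment.

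Carbonic anhydrases were led by 2 enzymes. Car15, a membrane-bound form, was at 175 ± 35.8 CPM per kb in Control and Car2, the cytosolic enzyme of intercalated and many other cells, at 95.0 ± 16.2 (SD, n = 4 each). Car4, a membrane-anchored form, followed at 33.9 ± 6.46 CPM per kb. Of the 14 genes 11 were tested, 0 passed, and the median log2 fold change was -0.25. Car2 was at 200, 261, 193 and 267 CPM for Control and 133, 173, 216 and 116 CPM for KO. KO replicate 3 lay among the Control libraries and the other 3 below them, and the log2 fold change was -0.53 ± 0.20 (SE, edgeR QL adjusted p = 0.286). Car15 had -0.38 ± 0.25 (SE), and -0.58 without KO replicate 3 or -0.22 without KO replicate 4, but it shares exons with the predicted gene Gm20518 on the same strand, which held 111% as many counts. At the low end, Car13, a cytosolic form, was at 1.37 ± 0.219 CPM for Control and 2.38 ± 0.534 for KO (log2 0.79 ± 0.27, SE), and Car11, a related protein without enzyme activity, at 2.56 ± 0.809 and 4.45 ± 1.82 CPM (SD, n = 4 each; log2 0.79 ± 0.36, SE). Their edgeR QL adjusted p-values were 0.227 and 0.356. Groups overlapped at a single library for Car13, where KO replicate 3 (1.65 CPM) and Control replicate 2 (1.66 CPM) met.

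A set of 5 members known from the proximal tubule, picked by hand, shared its lowest library within each group. Slc4a4, the bicarbonate exit path of that segment, was at 65.6, 439, 273 and 230 CPM over Control replicates 1 to 4 and 190, 135, 267 and 89.6 CPM over KO replicates 1 to 4. Slc9a3, its apical sodium-proton exchanger, was at 25.4, 84.5, 60.3 and 60.3 CPM for Control and 45.0, 38.1, 56.9 and 19.8 CPM for KO. Slc26a1, a sulfate and oxalate exchanger, was at 17.1, 62.8, 69.1 and 59.2 CPM for Control and 31.3, 28.6, 43.9 and 21.5 CPM for KO. In these 3 genes and in Car14 and Car4, Control replicate 1 was the lowest Control library and KO replicate 4 the lowest KO library, in 5 of 5 each. Over all 64 tested members, Control replicate 1 was the lowest Control library in 30 and KO replicate 4 the lowest KO library in 15. The 7 proximal markers, none of which is a member, summed to 1058, 3928, 3350 and 2471 CPM for Control and 2361, 1702, 2402 and 1073 CPM for KO, with the same lowest libraries. The part of proximal tubule RNA in the levels of these 5 members was not tested. Slc26a1 was not among the proximal genes fixed by name, and the set is not complete. Slc26a6 and Slc9a3r1 are also found in the proximal tubule, and they differed. Their lowest KO libraries were replicate 1 for Slc26a6 and replicate 3 for Slc9a3r1, while the lowest Control library was again replicate 1. Their log2 fold changes were -0.09 and 0.002. Log2 fold changes were -0.56 ± 0.49 for Slc4a4, -0.53 ± 0.37 for Slc9a3, -0.73 ± 0.38 for Slc26a1, -0.73 ± 0.46 for Car14 and -0.25 ± 0.25 for Car4 (SE). Those of the 7 markers ran from -0.64 (Slc5a12) to -0.45 (Lrp2). Without Control replicate 1, Slc26a1 was at -1.03 (edgeR QL adjusted p = 0.0541) Slc4a4 at -0.89, Car14 at -0.95 and Slc9a3 at -0.78. Without Control replicate 2, Slc4a4 was at -0.15, Car14 at -0.29 and Slc9a3 at -0.28. Without KO replicate 4, Slc4a4 was at -0.36, Car14 at -0.47, Slc9a3 at -0.31 and Car4 at -0.059; without KO replicate 3, they were at -0.88, -1.13, -0.76 and -0.47. Slc26a1 and Car14 overlap genes on the other strand, Idua with 37.6% and Aph1a with 165% as many counts.

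**Figure D5:**
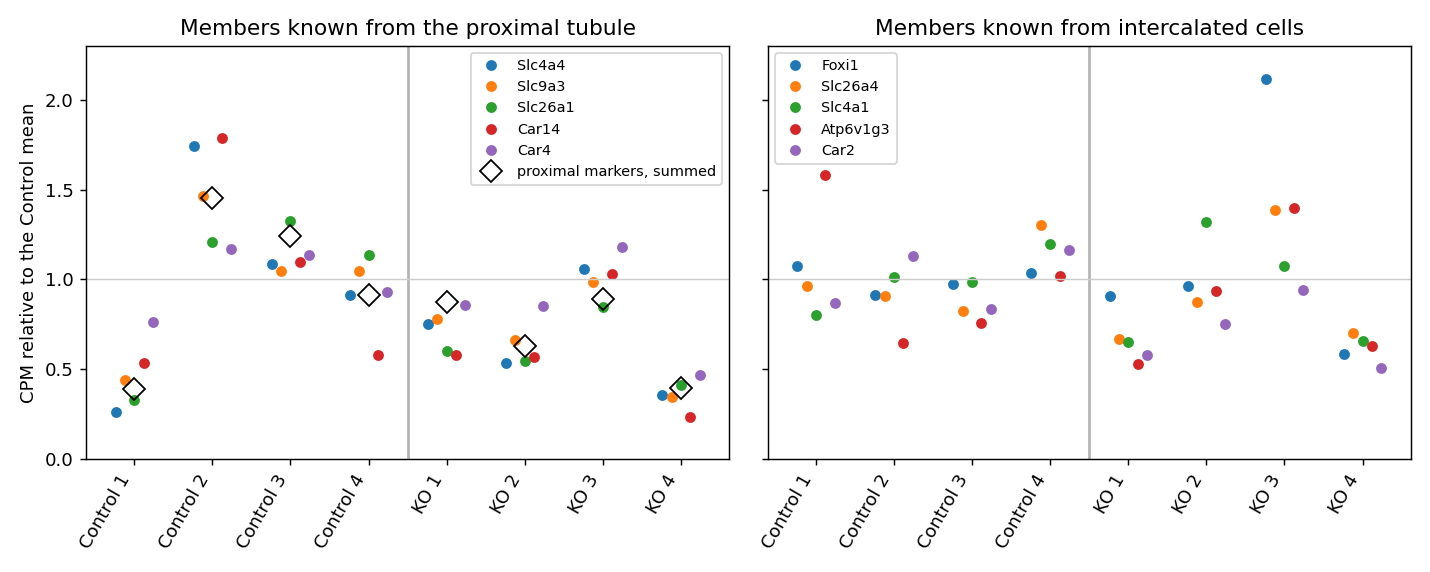
Level of 5 members known from the proximal tubule (left) and 5 known from intercalated cells (right) in each library, as CPM relative to the mean of the 4 Control libraries (y axis); open diamonds give the summed proximal markers. On the left the points of Control replicate 1 and KO replicate 4 lie lowest in their groups. On the right Foxi1 reaches 2.11 in KO replicate 3. The 5 on the right were picked by hand, and Atp6v1b1, Atp6v0d2, Atp6v0a4 and Rhcg are not drawn.

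Among the other bicarbonate transporters, 10 of 11 Slc4 genes were tested and 0 passed (median log2 fold change -0.03). Slc4a2, a widely expressed anion exchanger, was at 104 ± 19.3 CPM for Control and 112 ± 21.9 for KO (SD, n = 4 each), and its exons overlap those of Fastk on the other strand. Slc4a8, a sodium-driven chloride-bicarbonate exchanger, had a log2 fold change of 0.30 ± 0.16 (SE), or 0.19 without Control replicate 1. Slc4a5, a sodium-bicarbonate cotransporter, was low, at 2.68, 2.04, 3.24 and 3.10 CPM for Control and 1.48, 1.19, 2.201 and 1.05 CPM for KO. KO replicate 3 lay above Control replicate 2, the lowest of its group, and the log2 fold change, -0.89 ± 0.30 (SE, edgeR QL adjusted p = 0.219), was the lowest of any member.

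The sodium-proton exchangers were also unequal in level, with 10 of 11 family genes tested and 0 past the threshold (median log2 fold change 0.09). The adaptor gene Slc9a3r1, whose product ties transporters to ezrin, led with 58.7 ± 5.38 CPM per kb in Control. Slc9a2, an apical exchanger of the distal tubule, stood, among the exchangers described here, highest at 15.3 ± 0.978 CPM per kb, followed by Slc9a3 at 10.5 ± 4.42 (SD, n = 4 each). Slc9a2 was at 104, 105, 102 and 117 CPM for Control and 94.4, 146, 146 and 134 CPM for KO, with 3 KO libraries above all Control libraries and KO replicate 1 below them. Its log2 fold change was 0.29 ± 0.15 (SE, edgeR QL adjusted p = 0.416). Slc9a5 had 0.68 ± 0.43 (SE), from under 1 CPM in both groups.

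Of the 11 Slc26 genes, 8 were tested and 0 passed (median log2 fold change -0.12). Slc26a4 was the most abundant at 35.9 ± 7.4995 CPM per kb in Control, followed by Slc26a1 at 12.9 ± 5.85 (SD, n = 4 each). Slc26a11, a chloride transporter placed in intercalated cells, was at 7.43 ± 0.880 CPM for Control and 7.61 ± 0.679 CPM for KO, and Slc26a7, a chloride-bicarbonate exchanger of type A cells, at 0.945 ± 0.172 and 0.956 ± 0.555 CPM (SD, n = 4 each). Slc26a8, a testis form, and Slc26a10 were under 1 CPM in every library. Of the 11 members that were not tested, 4 had 0 counts in all libraries (Rhag, Atp6v1e2, Car10 and Slc26a9), 5 had between 1 and 10 counts over all 8 libraries and the other 2, Slc4a10 and Slc9a9, had 19 and 34.

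Related genes outside the name rule were read from a list of 51 symbols chosen by function: pump accessory and assembly proteins, ammonia-producing enzymes, acid sensors and basolateral chloride paths. Of these, 39 were tested, and 0 were called higher and 0 lower, with a median log2 fold change of -0.02. Before adjustment, 5 had a p under 0.05 with KO higher and 1 with KO lower, beside 7.80% and 6.13% of all genes. Atp4a, the catalytic subunit of the gastric proton-potassium pump, was at 51.8, 49.8, 29.2 and 36.0 CPM for Control and 53.5, 112, 257 and 69.6 CPM for KO (log2 1.56 ± 0.44, SE, edgeR QL adjusted p = 0.13). Its KO libraries lay above the Control libraries, KO replicate 1 only just. Tfcp2l1, a transcription factor of the distal nephron that controls pump genes, was at 534, 839, 915 and 797 CPM for Control and 1145, 1137, 1382 and 1320 CPM for KO (log2 0.69 ± 0.18, SE, adjusted p = 0.09). Bsnd, the barttin subunit of the basolateral chloride channels, had 0.49 ± 0.12 (SE, adjusted p = 0.073), and the accessory pump protein gene Atp6ap1 had -0.34 ± 0.13 (adjusted p = 0.268). The groups did not overlap in 4 of the 39 with KO higher (Atp4a, Bsnd, Kcnj10 and Tfcp2l1) and in 3 with KO lower (Atp6ap1, Got2 and Stk39), beside 5.60% and 3.80% of all genes. These genes were chosen for mention after their values were seen.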

How the data were processed

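The authors deposited 1 file per library holding raw read counts (whole numbers) for each Ensembl gene. The tools STAR 2.7.4a, fastp 0.20.0 and bcl2fastq 2.20 and the build GRCm38.p6 are named, per the submitters' processing notes. The strand setting, the counting program and the annotation release were not given in the sources used here. Names, exon lengths and coordinates came from GENCODE vM21 on GRCm38, which named 42347 of 42416 identifiers; the other 69 held 0.0199% of counts and stayed in the library totals.

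All 8 libraries entered 1 fit of genotype with edgeR 4.0.16 (R 4.3.3): genes with at least 10 counts in at least 4 libraries, TMM scaling, two-sided quasi-likelihood F test, Benjamini-Hochberg adjustment over all 14444 genes, threshold 0.05. CPM are on TMM-scaled totals, and the SE is the absolute log2 fold change over the root of F. The test was first run on simulated data with 200 changed genes, none of them drawn from genes with low counts. It recovered 13.4% of 1.5-fold, 59.7% of 2-fold and 97.0% of 4-fold changes, and 6.61% of its calls were false. Replicates are numbered in order of deposit. Total counts were 18161442 to 45150953 per library. The labels do not state how the animals are related, and p-values measure the spread between these libraries. No pair of libraries in a group agreed within sampling noise (chi-square per degree of freedom 28.9 to 188).

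Alternatives were DESeq2 1.42.0, limma 3.58.1 (voom with library quality weights), other scalings and filters, removal of mitochondrial genes, terms for the file-name form and the animal-number series, and leaving out each library. Leaving out Control replicate 1 and KO replicate 4 together was added after seeing the data. The members, lists and named-gene rule (all members past the threshold, in each family the 3 highest per kilobase and the 3 smallest p, and genes fixed by name) were chosen with earlier results of these data known. Genes named outside that rule were chosen after their values were seen. Some members are counted in the family totals but their single values are not reported here.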

Additional observations from a re-analysis of the deposited data

Results flagged for a closer look

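Slc26a7 in Control replicate 4 stood at 1.20 CPM, where the other 3 Control libraries lay between 0.835 and 0.877 CPM, a gap of 0.886 of the group's range, past Dixon's critical value for 4 libraries. It was the 1 such library found in 90 groups examined (Control and KO, each named member), where chance flags about 1 group in 20. The gene had 94 counts over the Control libraries.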

How the results depend on the processing

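No paired analysis was possible because the labels carry no replicate numbers shared between the groups. Blocking on the animal-number series, in which 1 series holds a single library, left 0 members called and moved the calls over all genes from 177 higher and 121 lower to 5 and 24. Members called were 2 higher and 1 lower by DESeq2, 1 and 1 by limma-voom, 1 and 0 with library totals, and 0 and 0 in all other settings, single libraries left out included. Over all genes, calls were 426 higher and 327 lower by DESeq2, 315 and 252 by limma-voom, 241 and 89 with library totals, 62 and 78 with a minimum of 5 CPM and 105 and 94 with a term for the file-name form. They were 35 and 48 without Control replicate 1 and KO replicate 4 together, and 15 and 21 (without KO replicate 2) to 228 and 123 (without KO replicate 3) with 1 library left out. Library totals shifted the median log2 fold change of all genes from -0.02 to 0.13.

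Of 46 named genes, 31 kept their direction in every setting and 15 did not; the cause was not tested. Reversed log2 values by limma-voom were -0.016 for Atp6v0a2, 0.087 for Atp6v0b, 0.026 for Atp6v0c, 0.022 for Atp6v1g3, -0.0023 for Foxi1, -0.0039 for Slc26a11, -0.17 for Slc26a7 and -0.030 for Slc9a3r1. With library totals they were 0.13 for Atp6v0a4, 0.047 for Atp6v0b, 0.10 for Atp6v1b2, 0.087 for Rhcg and 0.017 for Slc4a1. Slc9a3r1 had -0.0065 by DESeq2, -0.00058 with upper-quartile scaling, -0.014 with the 5 CPM minimum and -0.0058 without mitochondrial genes. Without Control replicate 1 and KO replicate 4 together, values were -0.016 for Atp6v0a2, 0.0094 for Atp6v0b, 0.24 for Atp6v1g3, 0.0055 for Rhcg, -0.078 for Slc26a11, -0.043 for Slc4a2 and -0.057 for Slc9a3r1. With 1 library left out, ranges that crossed 0 were -0.0053 to 0.14 for Atp6v0a2, -0.19 to 0.063 for Atp6v0b, -0.52 to 0.11 for Atp6v1g3, -0.031 to 0.097 for Slc26a11, -0.068 to 0.074 for Slc9a3r1, -0.085 to 0.075 for Atp6v0a4, -0.13 to 0.059 for Atp6v1b2, -0.15 to 0.34 for Atp6v1f, -0.22 to 0.27 for Slc26a7, -0.43 to 0.012 for Slc26a4, -0.33 to 0.017 for Slc4a1, -0.30 to 0.41 for Foxi1, -0.12 to 0.023 for Rhcg and -0.00065 to 0.24 for Slc4a2. Members at a few CPM rest on few counts, and small differences there were not detectable at this depth.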
